A study of Homo sapiens with 8 samples.

Results

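Transforming growth factor beta (TGF-β) signalling was followed through 10 genes in HMLE cells, a line of immortalised epithelial cells from the human breast. They are the ligands TGFB1 and TGFB2, the ligand-storing protein LTBP1, the receptors TGFBR1, TGFBR2 and TGFBR3, the inhibitors SMAD7, SKIL and SKI, and TGFBI, a matrix protein named for its induction by the pathway. The genes were taken by symbol from the 36601 genes of the deposited count matrices, where each had 1 row, and all 10 passed the filter on low counts in each test below. The series addresses intermediate states of epithelial-to-mesenchymal transition (EMT) induced by TGF-β, and the part played by G-quadruplexes (folded guanine-rich DNA), probed with their ligand pyridostatin. In it, 12 samples of HMLE cells were each marked with 1 short barcoded oligonucleotide (SBO01 to SBO12), pooled, and counted as unique molecular identifiers (UMIs) in 4 single-cell 5′ mRNA libraries, beside 4 barcode libraries. The labels do not say which barcode marks TGF-β, pyridostatin, an untreated culture or a time. Every group below is therefore a barcode population of the same cell line with its treatment not given, and treated and untreated cells could not be compared. Spread between replicate cultures is not measured.

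TGF-β ligands are secreted in a latent form, bound to their own propeptide and to a latent TGF-β binding protein that anchors them in the matrix. Released ligand is bound by the type II receptor, which activates the type I receptor, and this phosphorylates SMAD2 and SMAD3, which enter the nucleus with SMAD4. SMAD7, SKI and SKIL restrain the signal, and SMAD7 and SKIL are themselves induced by it. In mammary epithelial cells the pathway is a classical inducer of EMT.

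Of 26247 cell barcodes, 22147 cells passed the quality filters and 11072 carried a single sample barcode. Libraries 1 and 2 held SBO01 to SBO06 (pool 1), and libraries 3 and 4 held SBO07 to SBO12 (pool 2). The populations held 352 to 1864 cells and 8589593 to 48844485 gene UMIs. More than 1 library held 899 of the cell barcodes, each counted there as a separate cell. SBO12 stood apart in its assignment, because another sample barcode had more UMIs in 782 of its 1227 cells and only 93 cells were given to it by both assignment rules. All 12 mammary epithelial markers reached 1 CPM (a UMI count scaled to a common library total) in some population, with summed levels from 3650 CPM in SBO05 to 21005 CPM in SBO03. Only 2 of 8 leukocyte markers (CD14 and CD68, with CD3E at 0) and 2 of 7 endothelial markers (CDH5 and KDR) did so. Of 8 stromal fibroblast markers 5 reached 1 CPM, and their summed level was 52.4 CPM in SBO12, 76.5 CPM at the median over populations and 318 CPM in SBO05. Most of this sum was THY1, at 39.3 CPM in SBO12 and 288 CPM in SBO05. FAP, alone of the 5, was highest in another population than SBO05 (SBO03, 23.5 CPM).

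The RefSeq promoter table (GRCh38.p14) held 21 start sites of 9 of the genes, with no entry for SKI. The 250 bases before each start were searched on both strands for a G-quadruplex pattern, 4 runs of at least 3 G with gaps of 1 to 7 bases, and for the SMAD box CAGAC, which reads GTCTG on the other strand. The G-quadruplex pattern was found in 7 of the 21 windows, from 6 genes, and in 23.5% of all 35116 promoters. The SMAD box was found in 11 of the 21 windows, from 5 genes, and in 38.0% of all promoters. TGFBR1 alone has 8 of the windows. Some windows of TGFBR1 and of LTBP1 overlap, so the same bases can count more than once. Matches of letters show neither a folded structure nor a bound factor. The 4 promoters below are those of genes with 1 start site each and a match to at least 1 of the patterns, with the pattern named in capitals. TGFBR3 also has 1 start site, but its window held neither pattern and is not shown. They are written 5′ to 3′ on the strand of the gene and end before the first annotated exon.
TGFB2, SMAD boxes in capitals, chr1:218345086-218345335, plus strand: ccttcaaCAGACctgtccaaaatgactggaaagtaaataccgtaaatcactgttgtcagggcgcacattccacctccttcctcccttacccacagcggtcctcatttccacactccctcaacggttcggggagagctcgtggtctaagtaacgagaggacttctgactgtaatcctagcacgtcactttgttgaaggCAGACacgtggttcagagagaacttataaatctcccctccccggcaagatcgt
TGFBI, G-quadruplex patterns in capitals, chr5:136028738-136028894, plus strand: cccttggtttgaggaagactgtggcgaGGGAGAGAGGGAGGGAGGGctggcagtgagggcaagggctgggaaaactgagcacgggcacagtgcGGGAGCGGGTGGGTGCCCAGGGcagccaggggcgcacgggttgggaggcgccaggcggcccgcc
SKIL, G-quadruplex pattern in capitals (on the opposite strand), chr3:170357465-170357677, plus strand: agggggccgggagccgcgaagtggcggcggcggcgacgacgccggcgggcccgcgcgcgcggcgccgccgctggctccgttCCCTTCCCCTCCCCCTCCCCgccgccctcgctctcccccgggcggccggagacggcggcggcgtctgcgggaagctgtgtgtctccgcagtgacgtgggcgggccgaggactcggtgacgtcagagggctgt
TGFB1, G-quadruplex pattern in capitals (on the opposite strand), chr19:41353923-41354172, minus strand: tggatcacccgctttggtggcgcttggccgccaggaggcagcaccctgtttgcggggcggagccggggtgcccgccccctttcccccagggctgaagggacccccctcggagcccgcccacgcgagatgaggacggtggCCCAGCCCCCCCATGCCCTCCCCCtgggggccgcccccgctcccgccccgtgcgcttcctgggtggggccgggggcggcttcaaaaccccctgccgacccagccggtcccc

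The window of TGFB2 held 2 SMAD boxes and no G-quadruplex pattern, at a GC content of 50.4%. Those of TGFBI and TGFB1 held the G-quadruplex pattern and no SMAD box, at 72.8 and 76.8% GC over the whole 250 bases. SKIL had 1 of each. In GENCODE 29 the genes lie on chromosome 1 at 218346235 to 218444619 (TGFB2), 5 at 136028895 to 136063818 (TGFBI), 3 at 170357678 to 170396835 (SKIL) and 19 at 41301587 to 41353911 (TGFB1), all protein coding. LTBP1, described next, lies on chromosome 2 at 32946972 to 33399509.

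The first question was how the levels of these genes varied over the 12 barcode populations. LTBP1 set SBO05 apart most, TGFB1 and TGFBR3 were also highest in SBO05, TGFBR2 was lowest there, and SKIL and TGFBI had their 3 highest levels in SBO03, SBO02 and SBO04. SKI hardly varied. Levels are UMIs summed over the cells of a population, in CPM, given for the first and the second library of its pool. In a sum over cells, fewer cells that express a gene and less RNA per cell cannot be told apart.

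LTBP1, which tethers latent TGF-β to the extracellular matrix, stood at 33.3 and 37.7 CPM in the 2 libraries of SBO05. The next population, SBO01, had 5.12 and 6.16 CPM, and the lowest, SBO10, had 2.39 and 2.63 CPM. Over both libraries SBO05 held 35.3 CPM (exact Poisson 95% interval 33.5 to 37.1, counting error only), 6.27 times SBO01 and 9.25 times the median population. Without SBO05 the range of LTBP1 over populations fell from 3.38 to 0.92 on the log2(CPM + 1) scale. SBO05 was also the population with the highest summed level of fibroblast markers, most of it THY1, and the lowest of mammary epithelial ones. The part of this in the LTBP1 level was not tested.

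TGFB1, the most widely expressed TGF-β ligand, was likewise highest in SBO05, at 85.4 and 92.4 CPM. The other 11 populations lay between 29.8 CPM in SBO09 and 48.3 CPM in SBO04, and no neighbours among these 11 differed beyond their spread. Neighbours are said to differ here when neither their library values nor their Poisson intervals overlapped. TGFB2, a second ligand, had no such gap in its order. It stood at 12.7 and 13.0 CPM in SBO02, 10.5 and 12.5 CPM in SBO05 and 10.7 and 10.5 CPM in SBO06, and at 3.58 and 3.55 CPM in SBO12, the lowest. The 6 populations of pool 1 ranged from 5.67 to 12.8 CPM and those of pool 2 from 3.56 to 6.56 CPM.

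**Figure D1:**
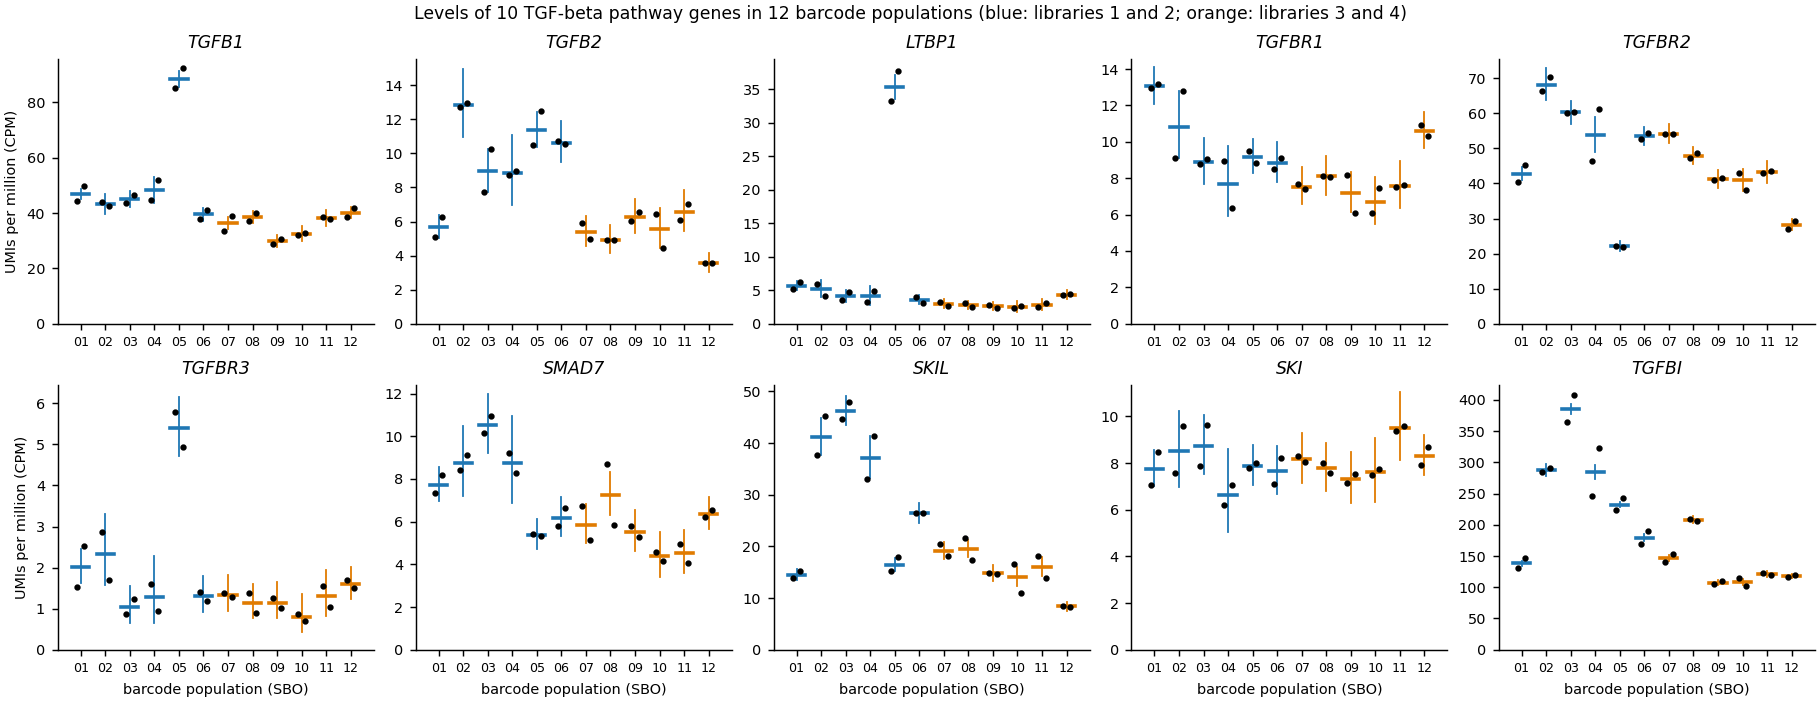
Level of each gene in CPM (vertical axis from 0, a scale per gene) in the 12 barcode populations (horizontal axis). Bars are the level over both libraries with its exact Poisson 95% interval, and black points are the 2 libraries. LTBP1, TGFB1 and TGFBR3 peak in SBO05, TGFBR2 is lowest there, and SKIL and TGFBI are highest in SBO02, SBO03 and SBO04.

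Among the receptors, TGFBR2, the ligand-binding type II receptor, ran opposite to TGFB1 in SBO05. It stood at 66.4 and 70.3 CPM in SBO02, the highest, and at 22.2 and 21.9 CPM in SBO05, the lowest, with SBO12 next at 26.9 and 29.4 CPM. SBO02, SBO03, SBO12 and SBO05 each differed from their neighbours beyond the spread, while SBO07, SBO04 and SBO06 (53.5 to 54.1 CPM) did not differ from each other. TGFBR1, the type I receptor kinase, varied less. It was highest in SBO01 at 13.0 and 13.2 CPM and lowest in SBO10 at 6.09 and 7.47 CPM, and no neighbours in its order were separated.

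TGFBR3, betaglycan, a co-receptor that presents ligand to the type II receptor, was scarce. SBO05 had 5.79 and 4.94 CPM from 224 UMIs in all, and SBO02, the next, 2.86 and 1.69 CPM from 30 UMIs. The other 10 populations had 0.791 to 2.01 CPM, which rests on 11 to 98 UMIs each and did not separate them.

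SKIL, the corepressor SnoN that holds SMAD complexes inactive, had the second widest range of the 10 genes. Its levels were 44.6 and 48.0 CPM in SBO03, 37.7 and 45.2 CPM in SBO02 and 33.1 and 41.3 CPM in SBO04. SBO03 and SBO02 did not differ beyond their spread, and in cells assigned alike by both rules SBO02 was higher (49.5 against 46.2 CPM). SBO06 followed at 26.4 CPM in both libraries, apart from those above and below it, and SBO12 was lowest at 8.49 and 8.27 CPM. SMAD7, which blocks the type I receptor, had the same 3 populations on top at lower counts, but no neighbours in its order were separated. It stood at 10.1 and 10.9 CPM in SBO03 and at 4.57 and 4.15 CPM in the lowest, SBO10. SKI, the close relative of SKIL, stayed between 6.64 CPM in SBO04 and 9.50 CPM in SBO11, a range of 0.46 on the log2(CPM + 1) scale against 2.33 for SKIL, and no population was separated.

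TGFBI, a secreted matrix protein, was at 364 and 408 CPM in SBO03, 284 and 291 CPM in SBO02 and 246 and 323 CPM in SBO04. SBO05 had 223 and 243 CPM and SBO08, the highest of pool 2, 210.0 and 206 CPM. SBO09 was lowest at 104 and 110.0 CPM. In its order 7 of 11 neighbouring pairs were separated, the most of the 10 genes.

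Counting each gene once, the highest population was SBO05 for 3 genes (TGFB1, TGFBR3, LTBP1), SBO03 for 3 (TGFBI, SMAD7, SKIL), SBO02 for 2 (TGFB2, TGFBR2), and SBO01 (TGFBR1) and SBO11 (SKI) for 1 each. The highest population was not separated from the next for TGFB2, TGFBR1, SMAD7, SKIL and SKI. SBO10 was lowest for 4 genes, and in none of them was it separated from the next lowest. The same tally over all genes was not made. Restricting the cells to those assigned alike by both rules moved the top of SKIL to SBO02 and that of SKI to SBO12 (10.5 CPM, against 9.20 CPM in SBO11), and kept the other 8. It left 93 cells of SBO12, whose levels were then 42.2 CPM for TGFB1, 27.2 CPM for TGFBR2, 119 CPM for TGFBI, 6.51 CPM for SKIL from 23 UMIs and 4.25 CPM for LTBP1 from 15 UMIs. The SBO05 levels were 89.0 CPM for TGFB1 and 35.5 CPM for LTBP1 by that restriction.

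Differences among the populations of a pool were tested with edgeR's quasi-likelihood F test on UMIs summed per population and library, 24 sums, blocked by library and with Benjamini-Hochberg adjustment over 15113 genes. In pool 1 the test called 9 of the 10 genes, all but SKI (adjusted p = 0.56), where 79.5% of all genes were called. LTBP1 (adjusted p = 7.98e-21), TGFBI (1.56e-17) and TGFB1 (5.60e-17) had the smallest values. In pool 2 it called 8 of the 10, all but SKI (adjusted p = 0.35) and TGFBR3 (0.32), against 44.1% of all genes. Both shares are counts beside a high background, and the test rests on 2 loads of each pool. In pool 2 the call of 4 genes (LTBP1, SMAD7, TGFB2 and TGFBR1) was lost when only cells assigned alike by both rules were used and also by the top barcode rule, which left TGFB1, TGFBR2, TGFBI and SKIL. DESeq2 lost LTBP1 and SMAD7, leaving out library 3 lost the same pair, and leaving out library 4 lost LTBP1 and TGFB2.

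Known TGF-β targets, used below as a score, did not share 1 top population either. The cytoskeletal TAGLN (196 CPM) and the matricellular CCN2 (149 CPM) were highest in SBO05. PMEPA1, a feedback inhibitor, was highest in SBO03 at 191 CPM and lowest in SBO05 at 23.8 CPM, and THBS1, TPM1 and CDKN2B were highest in SBO03 too, at 641, 916 and 130 CPM. BHLHE40 was highest in SBO04 (86.5 CPM), HMGA2 in SBO01 (64.5 CPM) and ANGPTL4 in SBO08 (7.78 CPM).

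The second comparison asked how the 10 genes changed along an EMT score inside the populations. The score subtracts the averaged standardised levels of 12 epithelial genes from those of 12 mesenchymal genes in cells thinned to 10000 UMIs, and holds none of the 10 genes. Cells of each population in each library were ranked by score and cut into 3 tiers (low, middle, high) with equal numbers of cells. Populations therefore entered the tiers in equal shares, and unthinned UMIs were summed per tier and library. LTBP1, TGFB2, TGFB1 and TGFBI were higher in the high tier, while the receptors and the inhibitors were not called. Of the 12 populations taken singly, LTBP1 and TGFB2 were higher in both libraries in 6 each, TGFB1 in 9 and TGFBI in 10. TGFB2 was lower in both libraries in 2 populations, TGFB1 in 1, and LTBP1 and TGFBI in 0.

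LTBP1 stood at 7.43, 8.40, 2.96 and 2.66 CPM in the low tier of libraries 1 to 4 and at 17.3, 17.4, 3.29 and 3.81 CPM in the high tier. It was higher in all 4 libraries, with the larger differences in the libraries of pool 1, and the tiers overlap when libraries are pooled. The fitted change was 0.93 ± 0.11 (log2, SE; edgeR adjusted p = 1.12e-06). In SBO05 alone LTBP1 rose along the tiers from 18.8 to 36.3 to 52.0 CPM. Without SBO05 the fitted change was 0.51 (adjusted p = 0.0031), so that the size, but not the call, rests on that population.

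TGFB1 was at 48.7, 50.2, 32.7 and 36.9 CPM in the low tier and 64.3, 70.2, 40.2 and 40.7 CPM in the high tier, higher in 4 of 4 libraries. The change was 0.34 ± 0.040 (log2, SE; edgeR adjusted p = 1.75e-06), and within SBO05 the level went from 69.9 to 111 CPM. TGFB2 was at 7.88, 7.39, 5.17 and 4.37 CPM in the low and 10.4, 12.7, 5.47 and 5.61 CPM in the high tier, a change of 0.44 ± 0.089 (adjusted p = 9.05e-04). TGFBI was at 184, 216, 123 and 129 CPM in the low and 242, 268, 158 and 152 CPM in the high tier, rose through the middle tier in 4 of 4 libraries, and changed by 0.33 ± 0.024 (adjusted p = 1.90e-09).

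The other 6 genes did not pass. TGFBR2 had 42.1 ± 2.99 CPM in the low and 44.0 ± 0.777 CPM in the high tier (SD, n = 4 libraries). SKIL had 19.5 ± 5.58 and 19.4 ± 5.75 CPM, with a change of -0.01 whose interval of 1.96 SE ran from -0.10 to 0.08. Intervals were -0.11 to 0.18 for TGFBR1, -0.35 to 0.41 for TGFBR3, -0.04 to 0.30 for SMAD7 and 0.0066 to 0.26 for SKI.

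Of the 10 genes 4 were thus called higher and 0 lower, beside 11.6% higher and 12.7% lower of all 15247 genes tested. Their median change was 0.13, against 0.00 over all genes. Summed fibroblast marker levels ran from 56.4 to 118 CPM over the 4 libraries in the low tier and from 76.7 to 188 CPM in the high tier. Mammary epithelial markers, which share genes with the score, ran from 16419.7 to 20783 CPM in the low tier and from 11969 to 17123 CPM in the high tier. The part of these in the changes was not tested. Without the library block none of the 4 calls passed (adjusted p = 0.46 for TGFB1, 0.51 for TGFB2, 0.55 for TGFBI and 0.55 for LTBP1). When tiers were cut over whole libraries, so that populations could enter them unequally, LTBP1 (2.03, adjusted p = 0.061) and TGFB2 (0.55, adjusted p = 0.066) were not called.

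The third comparison used a score of TGF-β target genes in the same way, among them CCN2, PMEPA1, THBS1, TPM1, TAGLN, HMGA2, ANGPTL4, CDKN2B and BHLHE40. It asks which ligands, receptors and inhibitors go with the level of pathway targets in a cell. TGFB2 differed most, and TGFBI, TGFBR2, SKIL, SMAD7, TGFBR1 and TGFB1 were also higher in the high tier, while LTBP1, SKI and TGFBR3 were not called.

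TGFB2 was at 4.85, 4.90, 2.86 and 3.44 CPM in the low tier of libraries 1 to 4, and at 14.2, 15.9, 7.83 and 7.55 CPM in the high tier. The groups did not overlap. The fitted change was 1.48 ± 0.085 (log2, SE; edgeR adjusted p = 3.16e-12). It was higher in both libraries of 12 of 12 populations, from 0.70 in SBO10 to 1.83 in SBO09 on the log2(CPM + 1) scale, on 13 to 78 UMIs per population in the low tier.

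TGFBR2 went from 31.8, 33.6, 28.8 and 33.7 CPM to 53.0, 60.3, 50.9 and 53.5 CPM, again without overlap between the tiers, a change of 0.76 ± 0.042 (adjusted p = 1.77e-12). It was higher in both libraries of 12 of 12 populations, by the least in SBO05 (0.28), where its level was lowest. TGFBR1 went from 8.63, 9.14, 7.44 and 7.24 CPM to 12.0, 11.9, 9.65 and 8.77 CPM, a change of 0.37 ± 0.064 (adjusted p = 7.51e-05), with overlap between pools. TGFBR3 ranged over the libraries from 1.32 to 2.33 CPM in the low and from 1.07 to 2.96 CPM in the high tier, and the interval of its change ran from -0.17 to 0.40.

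**Figure D2:**
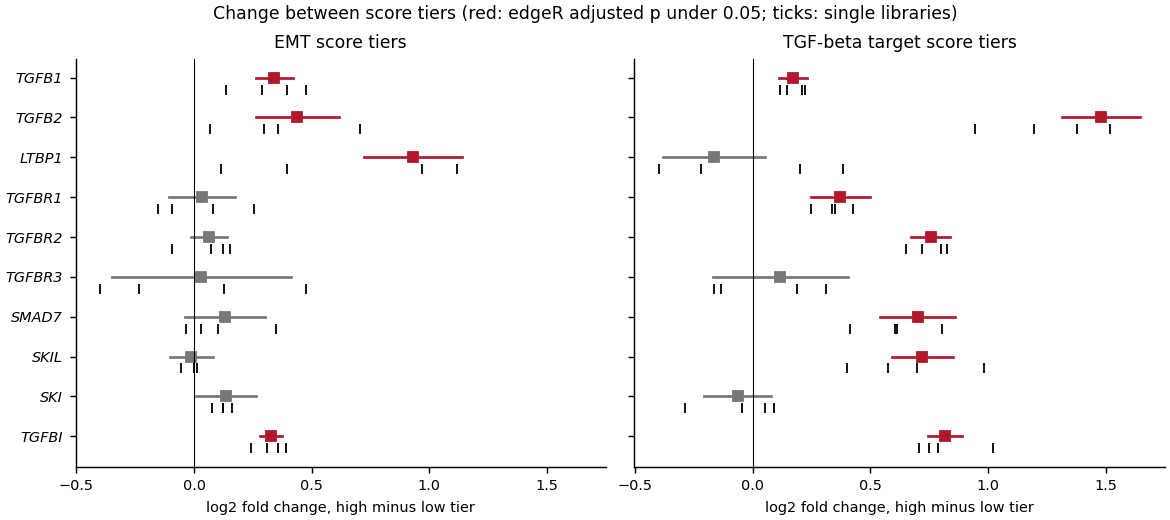
Change of each gene between the high and the low tier of the EMT score (left) and of the TGF-β target score (right). Squares are edgeR log2 fold changes with 1.96 SE on either side, red where the adjusted p is under 0.05, and ticks are the 4 libraries on the log2(CPM + 1) scale, which understates low genes. LTBP1 lies highest on the left and TGFB2 on the right, and the receptors and inhibitors TGFBR1, TGFBR2, SMAD7 and SKIL are red on the right and grey on the left, a contrast between scores that was not tested.

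The inhibitors SMAD7 and SKIL rose with the score. SMAD7 went from 5.20, 5.33, 5.04 and 4.79 CPM to 8.47, 10.0, 8.18 and 6.72 CPM without overlap, a change of 0.70 ± 0.081 (edgeR adjusted p = 3.73e-07), and was higher in both libraries of 11 of 12 populations. SKIL went from 17.8, 17.3, 12.5 and 11.4 CPM to 29.4, 35.1, 19.1 and 15.4 CPM, a change of 0.72 ± 0.066 (adjusted p = 8.87e-09). Its largest change within a population was 1.45 on the log2(CPM + 1) scale in SBO04, and in SBO10 it was -0.10. SKI showed no call, with 8.32 ± 0.763 CPM in the low and 8.01 ± 0.563 CPM in the high tier (SD, n = 4) and an interval from -0.21 to 0.08.

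TGFBI went from 162, 163, 103 and 112 CPM to 280, 332, 174 and 183 CPM without overlap, a change of 0.82 ± 0.038 (edgeR adjusted p = 7.91e-14), higher in both libraries of 12 of 12 populations. TGFB1 changed less, by 0.17 ± 0.031 (adjusted p = 1.23e-04), from 51.0, 55.1, 33.6 and 37.3 CPM to 59.6, 63.8, 37.3 and 40.5 CPM, higher in 4 of 4 libraries.

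LTBP1 was not called. It went from 14.7, 13.3, 3.01 and 2.85 CPM to 10.9, 11.3, 3.60 and 4.03 CPM, down in the libraries of pool 1 and up in those of pool 2, a change of -0.16 ± 0.11 (edgeR adjusted p = 0.28). Within SBO05 it went from 42.1 to 29.5 CPM between the low and the high tier. It was higher in 8 of 12 populations, but in both libraries in only 4. Without SBO05 the fitted change was 0.33 (adjusted p = 0.022), the opposite sign. The sign also turned without library 1 (0.023, not called), so the direction depends on the cells and libraries used.

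**Figure D3:**
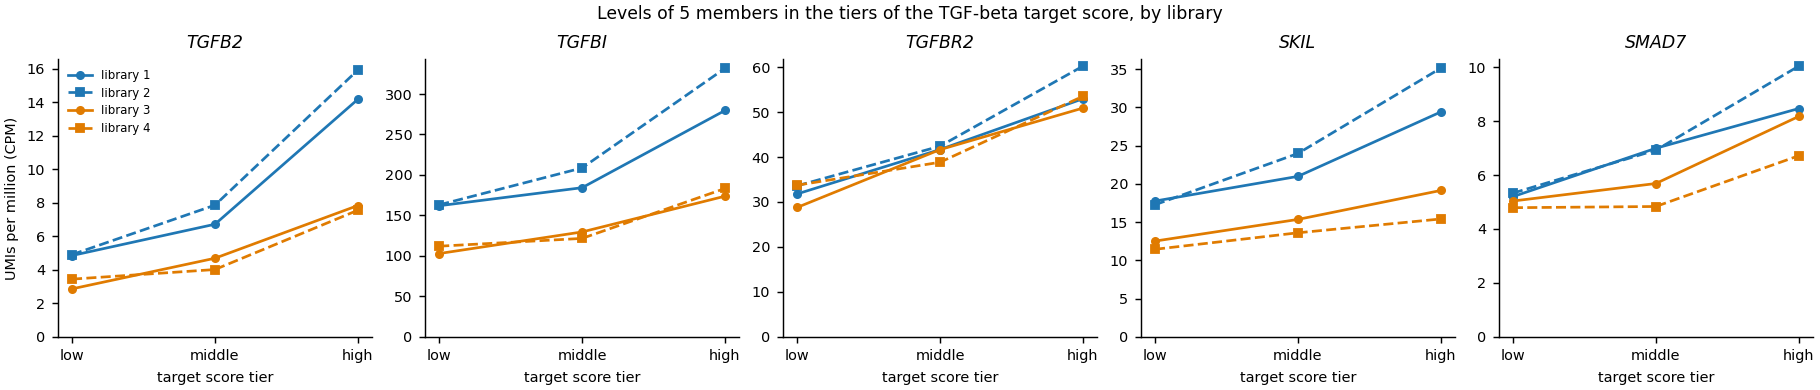
Levels in CPM (vertical axes from 0, a scale per gene) of 5 genes in the low, middle and high tier of the TGF-β target score, 1 line per library (blue pool 1, orange pool 2). TGFB2 runs from 2.86 to 4.90 CPM in the low and 7.55 to 15.9 CPM in the high tier, and each gene rises through the middle tier in all 4 libraries.

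In all 7 of the 10 genes were called higher and 0 lower, beside 16.5% higher and 15.4% lower of 15301 genes, with a median change of 0.54 for the 10 and 0.00 over all genes. Median UMIs per cell were 23610 to 41178.5 in the low and 23007 to 39344 in the high tier over the libraries, and summed fibroblast marker levels 51.9 to 133 and 77.8 to 173 CPM. Summed mammary epithelial marker levels were 13428 to 18617 CPM in the low and 15266 to 19679 CPM in the high tier, higher in each library. The part of these markers was not tested. Without the library block SKIL (adjusted p = 0.091) and TGFB1 (0.69) were not called.

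**Figure D4:**
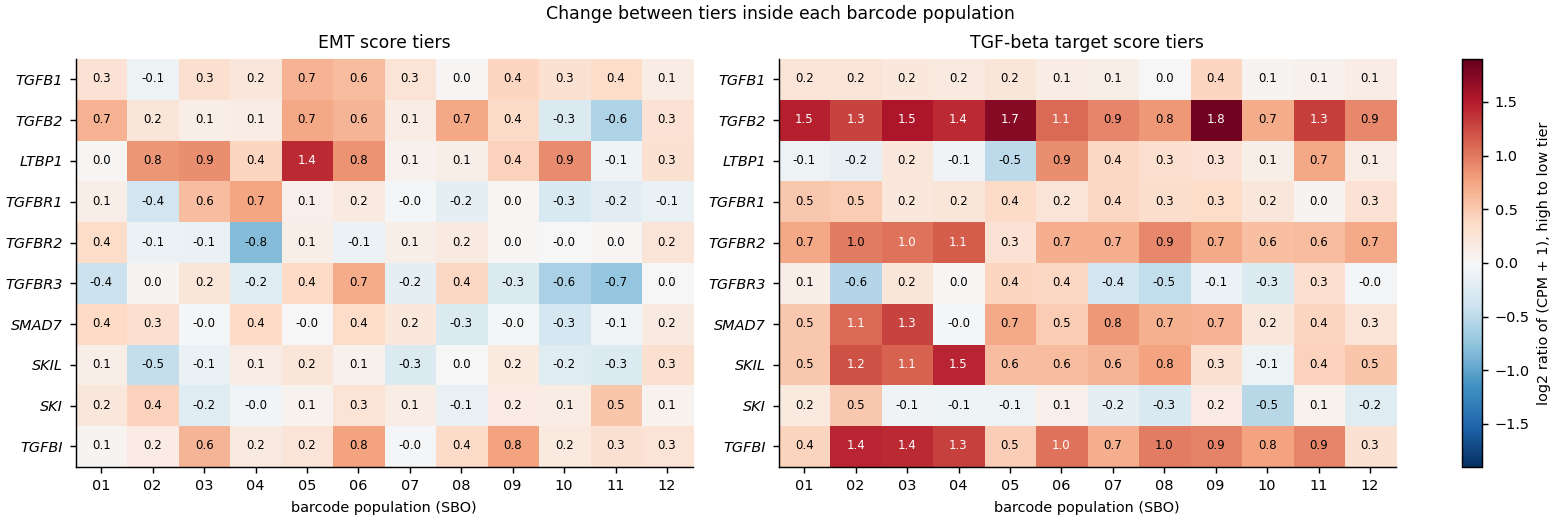
Change between the high and the low tier inside each barcode population, as the log2 ratio of CPM + 1 over both libraries, for the EMT score (left) and the TGF-β target score (right). Red is higher in the high tier. TGFB2, TGFBR2 and TGFBI are above 0 in all 12 populations on the right, and LTBP1 has its highest value (1.42) in SBO05 on the left and its lowest (-0.50) in SBO05 on the right.

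Whether these changes differ between the 2 pools was tested as an interaction in the same fits. For the EMT score 1 of the 10 genes was called, LTBP1, whose change was smaller in pool 2 by 0.80 ± 0.18 (log2, SE; edgeR adjusted p = 0.021), where 1.24% of all genes were called. The call was lost without SBO05 (-0.22, adjusted p = 0.87), without SBO12, when any 1 of the 4 libraries was left out (adjusted p = 0.060 to 0.35), without the library block, with DESeq2, with thinned counts and with cells assigned alike by both rules, in all 10 of 16 alternatives. With tiers cut over whole libraries 6 further genes were called (TGFB1, TGFB2, TGFBR2, TGFBR3, TGFBI and SKIL), beside 8439 of all 15207 genes. With 2 tiers TGFB1 was called as well, beside 122 of all 15822 genes. For the target score edgeR called 0 of the 10 genes, against 0.484% of all, and DESeq2 also called 0. At an unadjusted p under 0.05 in edgeR were 4 of the 10 (SKIL, TGFBI, LTBP1 and TGFBR3), beside 1160 of all 15301 genes. TGFBI was called with no filter, without SBO05 and without library 1 (lowest adjusted p = 7.83e-04), and LTBP1 with no filter and with both barcode rules (lowest adjusted p = 0.015). Pool and treatment cannot be told apart here, since the labels tie no treatment to a barcode.

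Other genes of the pathway were taken from lists drawn up by function, with earlier results of these data known. With the target score 10 of 13 genes of the latent complex and its activation tested (16 in the list) rose and 0 fell, beside 16.5% higher and 15.4% lower of all genes, with a median change of 0.45. ITGB6, an integrin subunit that releases active TGF-β, went from 16.6 ± 1.84 to 35.5 ± 9.95 CPM (SD, n = 4; edgeR adjusted p = 1.91e-11). MMP9 and MMP14, matrix proteases able to release ligand, changed by 0.78 and 0.54. With the EMT score 5 of the 13 rose and 3 fell, beside 11.6% higher and 12.7% lower of all genes, with a median of -0.09. ITGB8 (-0.39) and MMP9 (-0.37) fell and ITGB1 rose (0.19).

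Among 13 receptor partners tested, 7 rose and 1 fell with the target score, beside 16.5% higher and 15.4% lower of all genes. With the EMT score 3 rose and 2 fell, beside 11.6% higher and 12.7% lower of all genes. CAV1, caveolin, which takes part in receptor internalisation, rose with both scores (target score 0.41, EMT score 0.17). CD109, a co-receptor that dampens signalling, rose with the target score (0.20) and fell with the EMT score (-0.40). VASN, a ligand trap, rose with the target score (0.30) and SHC1, an adaptor, with both (0.15 and, on the EMT score, 0.10). Over populations VASN ranged from 29.5 to 84.1 CPM and CD109 from 27.0 to 61.9 CPM.

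Of 20 SMADs, corepressors and turnover factors, 7 rose and 1 fell with the target score, with a median change of 0.08. Over all genes 16.5% rose and 15.4% fell with that score. With the EMT score 0 of the 20 rose and 4 fell, beside 11.6% higher and 12.7% lower of all genes. The ubiquitin ligases SMURF2 (0.51) and NEDD4L (0.37), which mark receptors and SMADs for degradation, rose with the target score together with the corepressor TGIF1 (0.36). TGIF1 (-0.33), TOB1 (-0.18) and the deubiquitinase USP15 (-0.09) fell with the EMT score. Of 19 direct targets outside the score, 18 rose and 0 fell with the target score, beside 16.5% higher and 15.4% lower of all genes. Their median change was 0.68, beside 0.72 for SKIL and 0.70 for SMAD7. ADAM19 (1.01) and COL4A1 (0.93) were the abundant ones with the largest changes. With the EMT score 5 of the 19 rose, COL4A1 by 0.46, and 7 fell, ITGA2 by 0.38 and CDKN1A by 0.34. Of all genes 11.6% rose and 12.7% fell with that score.

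Levels per cell were read in 10233 cells thinned to 10000 UMIs, leaving out 839 shallower cells. TGFBI was found in 69.7% of cells (exact 95% binomial interval 68.8 to 70.6%, counting error only), with 89.0% before thinning. TGFB1 was found in 35.8%, TGFBR2 in 31.9%, SKIL in 17.0%, TGFBR1 in 9.12%, LTBP1 in 7.06%, SKI in 6.95%, TGFB2 in 6.76%, SMAD7 in 6.17% and TGFBR3 in 2.02% of cells. Before thinning, at the cells' own depths, the shares were 63.9, 58.9, 37.9, 22.4, 14.5, 19.8, 15.5, 16.8 and 5.29% for these 9 genes in the same order, so the shares depend on depth. No cell type lacking these genes was present to give a background share, and free RNA was not tested.

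LTBP1 was found in 22.9% of SBO05 cells (396 of 1726, lower bound of the interval 21.0%) and in 2.58% of SBO10 cells (12 of 466, interval 1.34 to 4.45%). TGFB1 was found in 56.9% of SBO05 and 24.4% of SBO09 cells, and TGFBR2 in 18.9% of SBO05 and 45.8% of SBO02 cells. SKIL was found in 34.9% of SBO03 cells and 7.22% of SBO12 cells. In each of these the order of the shares follows that of the levels.

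The spread between cells was read as variance over mean, a ratio that grows with the level, so genes of different levels are not ranked by it. The variance of TGFBI was 3.78 times its mean over all cells, where random sampling of a constant level gives a ratio of 1, and 1 cell of SBO05 held 48 of 10000 UMIs. Within populations the ratio ran up to 5.94 in SBO03. Over all cells it was 1.65 for LTBP1, 1.29 for SKIL, 1.27 for TGFBR2, 1.23 for TGFB1 and 1.20 for TGFB2, and 1.03 to 1.06 for SMAD7, TGFBR1, SKI and TGFBR3. Within SBO05 LTBP1 kept a ratio of 1.74, so that its cells differed in LTBP1 inside that population.

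**Figure D5:**
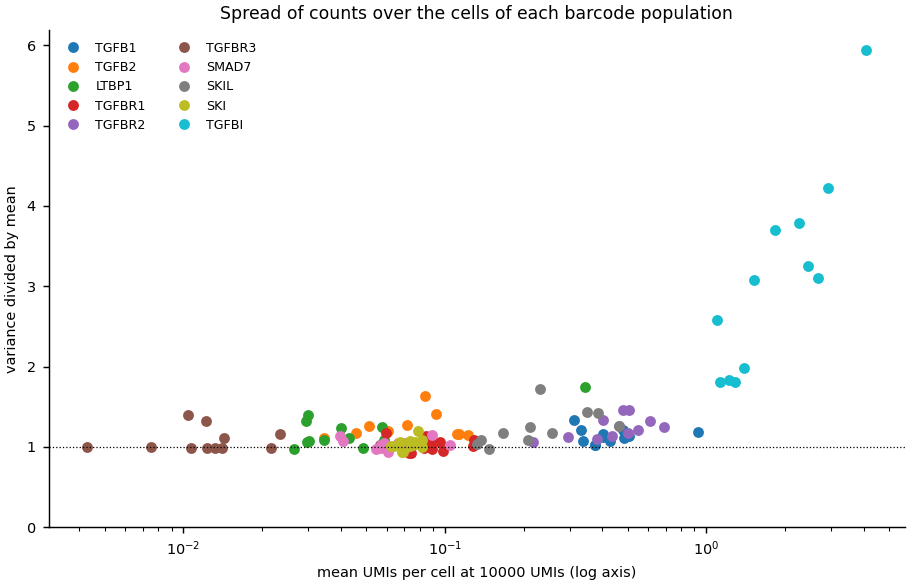
Variance divided by mean (vertical axis) against mean UMIs per cell at 10000 UMIs (horizontal log axis), 1 point per gene and barcode population. The dotted line at 1 is random sampling. TGFBI lies between 1.80 and 5.94, above the other genes, and LTBP1 in SBO05 at 1.74.

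The genes most like LTBP1, SKIL and TGFBR3, the members with the widest ranges on the log2(CPM + 1) scale, were named by Pearson's r of log2(CPM + 1) over the 12 populations among 6097 genes of at least 20 CPM on average. The ranges of TGFBR3 and TGFBI were both 1.84, and with a pseudocount of 5 CPM they were 0.84 and 1.80, so the choice of TGFBR3 rests on the pseudocount. Populations of a pool share libraries, so these are descriptions. SKIL was most like PTPRK (r = 0.985), TNC (0.983) and CTSZ (0.975), and the same 3 led without SBO03, at 0.980, 0.977 and 0.969. LTBP1 was most like NRSN2 (0.989), RAB11B (0.989) and RTL8C (0.988), all highest in SBO05. Without SBO05 the leading genes were OXSR1 (0.980), ATRX (0.966) and PABPN1 (0.962), so the likeness rested on that population. TGFBR3 was most like APC (0.973), COX8A (0.966) and SLC35B2 (0.957), and without SBO05 it was most like ZFP91 (0.940) and WRNIP1 (0.925).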

How the data were processed

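The authors deposited 1 raw UMI count matrix per mRNA library, holding 36601 genes and 12 sample barcodes. Per the file headers it was made with Cell Ranger 6.0.2, and the submitters' processing notes name bcl2fastq 2.20.0.422, Seurat 4.1.0 and hg38. Any filter before deposit, and the annotation release, were not given in the sources used here. The barcode libraries were not analysed separately. A 5′ kit counts transcript starts, so isoforms sharing a start are counted together.

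Cells were kept from 1000 genes upwards and up to 15% mitochondrial UMIs (177547055, 137476428, 157730929 and 153799833 UMIs in libraries 1 to 4). Sample barcodes were assigned with HTODemux (Seurat 5.3.0, quantile 0.99) within each library. This left out 5510 cells with several barcodes and 5565 with none, and no other doublet caller was run. The alternative rule asked for at least 10 UMIs of the top barcode and 3 times the next. Tests used edgeR 4.0.16 with filterByExpr, TMM and library as a block at a false discovery rate of 0.05, run on simulated data first, and DESeq2 1.42.0 as an alternative. In the simulated data the test between pools recovered 24.2% (EMT score) and 24.5% (target score) of genes given a log2 difference of 0.3. At a difference of 0.5 it recovered 43.9% and 51.0%. The common biological coefficient of variation was 0.025 and 0.022 in the tier fits. Tiers of 1 library share its preparation, which is what the block pairs. The 4 libraries are 2 loads of 2 pools, so p-values measure technical spread and differences between pools. Genes of a score were not tested on it. The members and lists were chosen with earlier results of these data known. Besides the members, the rule names, per list, the 3 called genes of at least 20 CPM with the largest change on each score and the 2 with the widest range. SE is the log2 change divided by the square root of its F statistic. A few genes that these rules name are not reported here. Alternatives are in the closing section.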

Additional observations from a re-analysis of the deposited data

Results flagged for a closer look

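The change of LTBP1 between the tiers of the EMT score differed between the pools, by -0.80 (log2, pool 2 minus pool 1; edgeR adjusted p = 0.021), by the test of the difference itself. Single libraries gave 1.12 and 0.97 in pool 1 and 0.11 and 0.40 in pool 2 on the log2(CPM + 1) scale. The difference ranged from -2.77 to -0.22 over 16 alternatives, with adjusted p from 2.15e-11 to 0.87, and was -0.22 without SBO05.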

How the results depend on the processing

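Alternatives changed 1 choice at a time, and those leaving out SBO05 or SBO12 were chosen after seeing the data. No replicate block gave 342 genes called for the EMT score tiers, 926 for the target score tiers, 9 and 18 for their differences between pools, against 3699, 4884, 189 and 74 with it. Without this pairing of tiers within libraries the 4 EMT calls of members and those of SKIL and TGFB1 on the target score were lost, and 9 and 8 members stayed called over populations. DESeq2 gave 2072, 2979, 28 and 18 genes for the same 4 comparisons and 4258 for the populations of pool 2 (6671 in the report). Thinned counts gave 2215, 2992, 124 and 25. Tiers over whole libraries gave 1202 for the EMT score, and 8439 and 177 for the differences between pools. With no filter these 2 differences had 359 and 168 genes, with the top barcode rule 375 and 152, with 2 tiers 122 for the EMT score and with both barcode rules 110 for it. They had 54 (EMT score) without SBO05 and 123 (target score) without SBO12. The populations of pool 2 had 3600 by the top barcode rule and 3158 by both. Leaving out 1 library gave 2751 to 3171 (EMT score), 3847 to 4258 (target score), 57 to 139 and 53 to 78 (between pools), 9885 to 11890 (pool 1) and 3346 to 6706 (pool 2).

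The split of higher against lower calls moved by over 10 percentage points between scalings in none of the main comparisons of tiers run with library totals only (47.7 to 49.0% higher for the EMT score, 51.8 to 56.5% for the target score). LTBP1 changed sign on the target score without SBO05 (0.33, adjusted p = 0.022). SKIL changed sign in the difference between pools on the EMT score with tiers over whole libraries (0.50, adjusted p = 2.59e-04). In that setting TGFB1 (adjusted p = 2.39e-11), TGFBR2 (1.22, adjusted p = 1.89e-13), TGFBR3 (adjusted p = 5.96e-04), TGFB2 (adjusted p = 0.0012) and TGFBI were also called, beside 8439 of all 15207 genes. The cause was not tested. SKI on the EMT score was called by the top barcode rule (0.17, adjusted p = 0.039) and TGFBR2 without library 2 (0.12, adjusted p = 0.046). Of the alternative values of the members' changes, 152 of 160 on the EMT score and 157 of 160 on the target score kept their side of the threshold, with their direction where called. Of 100 alternative values of the members' ranges over populations 52 moved, as did all 20 shares of cells with a UMI. TGFBR3, at 11 to 224 UMIs per population, was the gene most limited by depth.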
